A study of Homo sapiens with 12 samples.

Results

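In all, 6 RNA-seq libraries of MDA-MB-231 cells, a human triple-negative breast cancer line, were compared: 3 from cells transfected with a plasmid carrying Dicer with the second of the study's mutations ("mutation 2") and 3 from cells transfected with the wild-type Dicer plasmid. They were taken by their treatment labels and are 6 of the 12 libraries in the series; the other 6, with mutations 1 and 3 (3 each), were used for the estimate of spread and for side-by-side levels. The labels number the mutations without naming the altered residue, and no untransfected or empty-plasmid cells were analysed here, so both groups were given a Dicer plasmid. Whether the cells' own Dicer gene was intact is not known here. Whether the libraries of a group stem from cultures grown and transfected apart is not in the labels. The p-values therefore reflect the spread between the libraries alone, and that spread may be technical. The question the comparison answers is which transcripts differed between cells given the mutated and the wild-type protein.

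Dicer is the ribonuclease that cuts precursor microRNA hairpins, made in the nucleus by Drosha and DGCR8, into the short duplexes from which Argonaute proteins take a mature microRNA. A loaded Argonaute pairs with sites in 3′ UTRs, chiefly through the microRNA's seed, and with TNRC6 scaffold proteins shortens the life of the bound mRNA. In breast cancer cells the pathway is best known for the let-7 family, which limits growth genes, and for the miR-200 family, which limits the factors of epithelial-mesenchymal transition. The libraries hold poly(A)-selected mRNA, so mature microRNAs were not measured.

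The 6 libraries held between 13507341 and 17078273 counts. The 3 libraries with mutation 2 lay close together, with 9 to 15 genes more than 2-fold apart in any pair (counting genes whose mean reached 5 CPM in either group), and wild-type replicates 2 and 3 with 16. Wild-type replicate 1 stood apart: 1697 and 1729 genes lay more than 2-fold from wild-type replicates 2 and 3, against 720 to 733 from the libraries with mutation 2, and its share of mitochondrial mRNAs was 1.34%, where the other wild-type libraries had 5.04% and 5.09% mutation 2 had 4.48% to 5.57%, mutation 1 1.27% to 1.36% and mutation 3 4.81% to 5.05%. Wild-type replicates 2 and 3 differed by a chi-square of 1.26 per gene, where counting noise alone gives 1, and were kept as 2 samples. For these reasons levels are given library by library, in CPM (counts scaled to a common library size) adjusted by the trimmed mean of M-values (TMM), with wild-type replicates in the order 1, 2, 3, and the fold changes from wild type are given with and without wild-type replicate 1, shortened to 'without replicate 1'. Whether this library carries the right label was not tested, and neither was the part that its differences play in the values of mutation 2 against wild type.

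As a check of the label, the levels of MDA-MB-231 and other cell markers were read. CD44 was at 944, 516 and 523 CPM in wild type and 844, 837 and 834 with mutation 2. EGFR was at 157, 243 and 233 and 262, 261 and 269.6 CPM. VIM was at 987, 1883 and 1873 and 733, 744 and 723 CPM. ESR1, PGR, FOXA1, KRT5 and KRT14 were too low to test, at no more than 0.584 CPM in any of the 6 libraries. They were the only 5 of the 26 MDA-MB-231 and basal breast markers too low to test, and the other 21 were tested. CDH1, also chosen as low or absent in this line, is given with the epithelial markers below. CD24, GATA3 and TP63, chosen for the same reason, are not given here, so this check is partial. EPCAM, an epithelial marker, was also chosen as low or absent. It was at 17.7, 5.64 and 4.59 CPM in wild type and 16.3, 16.6 and 16.2 with mutation 2, and was thus present in all 6 libraries. Of 31 markers of other cell types 23 were too low to test (at most 0.838 CPM) and 9 had no count in any library, among them CD3E, MS4A1 and SOX10. The 31 markers summed to 61.3 to 65.3 CPM in wild type and 40.6 to 46.8 with mutation 2. SLAMF7 (7.88 to 22.5 CPM in wild type and 0 with mutation 2) and PECAM1, an endothelial and leukocyte adhesion molecule (2.76, 17.1 and 15.3 against 0.915, 0.519 and 0.395 CPM, log2 fold change -4.28, and -4.75 without replicate 1), fell. Without these 2 the sums were 50.7, 26.9 and 27.6 CPM in wild type and 39.7, 46.3 and 43.2 with mutation 2. Mutation 2 thus lay above wild-type replicates 2 and 3 and below replicate 1. Of the 8 markers tested, 1 was higher and 2 were lower at an adjusted p under 0.05 by edgeR's test (16.9% and 20.1% of all genes tested). Leaving out replicate 1 gave 2 and 2 (33% and 34.9%). The markers called higher are not named here, so this part of the check is partial too. In bulk RNA, fewer cells of a type and less RNA per cell cannot be told apart.

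DICER1 itself, the gene on the plasmid, was at 27.4, 45.2 and 47.4 CPM in the wild-type libraries and 44.4, 45.7 and 45.7 CPM with mutation 2. The mutation 2 libraries lay within the wild-type range, and wild-type replicate 1 was the low one. The log2 fold change, always mutation 2 over wild type, was 0.18 (SE 0.16, adjusted p = 0.406 by edgeR's quasi-likelihood test with Benjamini-Hochberg adjustment over all genes tested), and -0.02 without wild-type replicate 1 (adjusted p = 0.723). A count for DICER1 adds up reads from the plasmid and any from the cells' own gene, mutated or not, so it checks neither the transfection nor the mutation. DICER1 lies on chromosome 14 (95086228 to 95158010, GRCh38), and its 20 nearest tested neighbours, 10 on each side between 92116122 and 98973301, had a median log2 fold change of -0.28, with 2 called higher and 10 called lower (median -0.27 without replicate 1). Over all 416 genes of chromosome 14 at 1 CPM or more the median was lower still, -0.50 (-0.65 without replicate 1). Of these genes 3.37% were called higher and 57% lower, against 18.3% and 22.1% over all chromosomes.

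Of 15094 genes tested, 5588 differed between mutation 2 and wild type at an adjusted p under 0.05, which is 37%; such genes are said to be called. They divided into 2555 higher with mutation 2 (16.9% of the genes tested) and 3033 lower (20.1%), and 1433 (9.49%) were also at least 2-fold apart. Without wild-type replicate 1 the count was 10726 of 15806 (67.9%), with 5213 higher (33%) and 5513 lower (34.9%), and 3140 (19.9%) at least 2-fold apart. Of the 5588 genes, 5534 were called in the same direction without that library and 0 were called in the other. When the fit used the 6 libraries alone, 2589 of 14002 genes were called (18.5%), 1223 higher (8.73%) and 1366 lower (9.76%), of which 745 (5.32%) were at least 2-fold apart. In 6427 genes (42.6%) the 3 mutation 2 libraries all lay on one side of the 3 wild-type libraries, 3215 above (21.3%) and 3212 below (21.3%), and in 11663 when wild-type replicate 1 was left out. With fewer wild-type libraries to clear, genes lie apart more easily, so these counts cannot be compared directly.

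**Figure D1:**
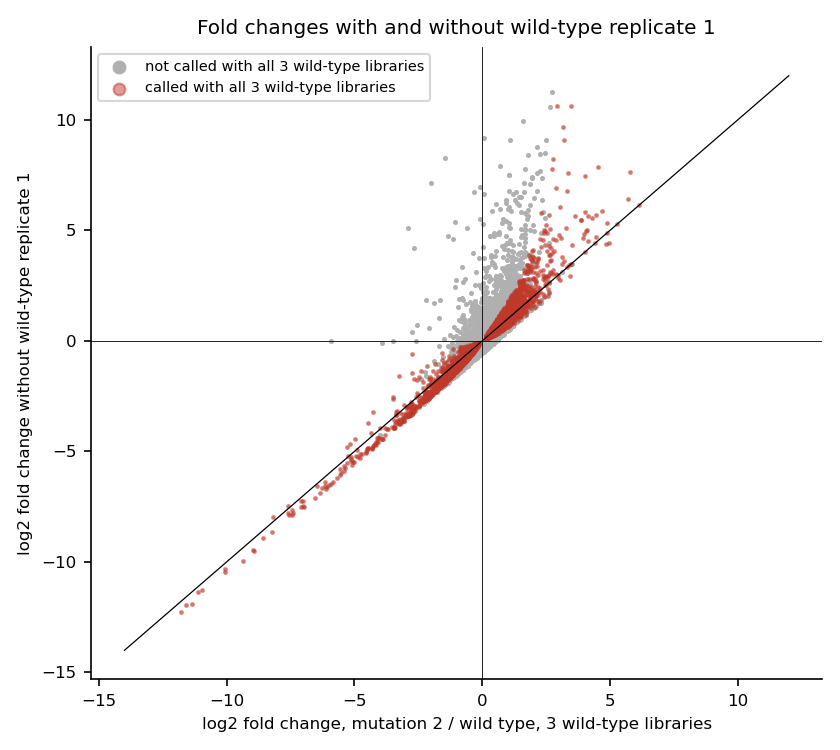
Log2 fold change of each gene (mutation 2 over wild type) with all 3 wild-type libraries on the x axis and without wild-type replicate 1 on the y axis; each point is a gene, red points were called with all 3 libraries (5588 of 15094), and the black diagonal marks equal values. Red points keep their side of 0, while many grey points on the upper side rise well above the diagonal.

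Because wild-type replicate 1 differed from its group, genes were first ranked by gap, which is the log2 ratio between the nearest libraries of the 2 groups (on CPM + 0.1), so that the wild-type library nearest to mutation 2 sets its size. A gap of at least 2-fold, with at least 1 CPM in the higher group, was found in 168 genes lower with mutation 2 (1.11% of the genes tested) and 136 higher (0.901%). The 15 widest in each direction among called genes at 5 CPM or more are described next. Wild-type replicate 1 was the wild-type library nearest to mutation 2 in all 15 genes that were lower and in 10 of the 15 that were higher.

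Several genes of secretory and mucus-making epithelium were close to silent with mutation 2. MUC5AC and MUC5B encode gel-forming secreted mucins. MUC5AC was at 8.47, 1014 and 1002 CPM in the wild-type libraries and 0.211, 0.195 and 0.338 CPM with mutation 2 (log2 fold change -11.34, SE 1.72, adjusted p = 0.000604, and -11.91 without replicate 1). For MUC5B the levels were 15.8, 25 and 25 against 0.0704, 0.195 and 0.0564 CPM (log2 fold change -7.59, SE 0.52, adjusted p = 5.13e-06, and -7.77 without replicate 1), and -8.27 when the second mutation 2 library was left out. MUC5AC in wild-type replicate 1 was far below the other wild-type libraries yet still above every mutation 2 library, and MUC5B was of one order in all 3. SPDEF, an ETS-family transcription factor of secretory cells, was at 31, 65.8 and 63.8 CPM in wild type and 0.141, 0 and 0 with mutation 2 (2 counts in all, count ratio 1285, exact 95% interval 355 to 10614, adjusted p = 1.36e-06). Without replicate 1 the count ratio was 1536 with an interval of 425 to 12691. Its fitted log2 fold change, -10.05 with all libraries, was -10.32 without replicate 1, -12.68 without the first mutation 2 library and -9.45 without the third. AGR2, an endoplasmic reticulum protein that mucins need for folding, was at 11, 21.7 and 21.7 CPM in wild type and had no count in any mutation 2 library, so it was at least 94.5-fold lower (floor of 3 counts per library, adjusted p = 7.77e-05), and at least 113-fold lower without replicate 1. FOXA2, a forkhead transcription factor of endodermal epithelium, stood at 16.5, 80.4 and 79.8 against 0, 0.259 and 0.282 CPM (log2 fold change -8.22, SE 0.82, adjusted p = 5.41e-05, and -8.65 without replicate 1). Across the list of secretory and luminal genes, 0 of 16 tested members rose and 10 fell (median log2 fold change -1.29), against 16.9% and 20.1% of all genes tested. The list was chosen with earlier results of these data known, so its counts are no separate support for the genes above. Once wild-type replicate 1 was left out, 5 rose and 10 fell (median -1.38). Leaving out each other library in turn left 0 and 9 to 10, and the fit of the 6 libraries 0 and 9. The 0 that rose by edgeR's test was 0 at an unadjusted p under 0.05 and 0 by DESeq2. TFF2, a small peptide secreted with mucus, fell less (4.46, 5.7 and 4.27 against 1.13, 1.49 and 1.41 CPM, log2 fold change -1.83, and -1.88 without replicate 1). The list's other 14 genes were too low to test.

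A second set of the genes with the widest downward gap encodes cytoskeletal, signalling and regulatory proteins. KRT81, a hair keratin that MDA-MB-231 cells express, was at 167, 1537 and 1508 CPM in wild type and 0.352, 0.324 and 0.226 CPM with mutation 2 (log2 fold change -11.78, SE 0.99, adjusted p = 2e-05, and -12.28 without replicate 1). Its near-identical neighbour KRT86 followed at 7.94, 20.9 and 20.5 against 1.06, 1.1 and 0.79 CPM (log2 fold change -4.06, and -4.40 without replicate 1). Because the pair is near-identical, the counts of both are uncertain. SOX4, a transcription factor, was at 28.2, 43.1 and 43.8 against 0.0704, 0.0649 and 0.621 CPM (log2 fold change -7.10, SE 0.48, adjusted p = 4.78e-06, and -7.26 without replicate 1); 1 mutation 2 library was higher than the other two, and without it the value was -8.98. For INHBB, the beta-B subunit of activin and inhibin, all 3 wild-type libraries were alike (8.73, 10.6 and 10.9 CPM) and all 3 mutation 2 libraries were near 0 (0.0704, 0.13 and 0.113 CPM, log2 fold change -6.47, SE 0.39, adjusted p = 2.81e-06, and -6.55 without replicate 1). MISP, an actin-bundling protein of the spindle cortex, was at 24.7, 47.9 and 45 against 0.282, 0.324 and 0.282 CPM (log2 fold change -7.01, SE 0.33, adjusted p = 6.73e-07, and -7.25 without replicate 1). SLAMF7, a receptor better known from lymphocytes, was at 7.88, 18.9 and 22.5 CPM in wild type with no count in mutation 2, at least 85.6-fold lower (adjusted p = 4.79e-05), and at least 108-fold lower without replicate 1. NALF1, an auxiliary subunit of the NALCN sodium leak channel, was at 2.89, 11.3 and 12 CPM against no count, at least 45.5-fold lower (adjusted p = 0.00108), and at least 60.7-fold lower without replicate 1.

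BAHCC1, a chromatin protein with a BAH domain, was low with mutation 2 and high in the 3 other groups. It was at 29.3, 57.8 and 57.5 CPM in wild type and 1.27, 0.908 and 1.24 CPM with mutation 2 (log2 fold change -5.39, SE 0.28, adjusted p = 1.3e-06, and -5.64 without replicate 1), and its means were 59.8 CPM with mutation 1 and 40.8 with mutation 3. GGT5, of the gamma-glutamyltransferase family, was at 12.7, 76.2 and 76.7 against 0.282, 0.454 and 0.508 CPM (log2 fold change -7.01, SE 0.73, adjusted p = 6.73e-05, and -7.47 without replicate 1). ATP10A, a lipid flippase, was at 2.63, 20.7 and 20.7 CPM in wild type and 0, 0.0649 and 0 with mutation 2, where it had 1 count in all (count ratio 712, exact 95% interval 127 to 28172). SCIN, an actin-severing protein, was at 2.03, 6.65 and 6.34 against 0.0704, 0 and 0 CPM, also with 1 count (count ratio 242, interval 43 to 9583). Both were called (adjusted p = 0.00264 and 0.000303), and their fitted log2 fold changes moved from -8.97 to -10.80 and from -7.42 to -9.26 without the library that held the count. Without wild-type replicate 1, ATP10A had a count ratio 981, exact 95% interval 175 to 38798, and SCIN had a count ratio 308, exact 95% interval 54.7 to 12222. The intervals and floors cover counting error only.

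**Figure D2:**
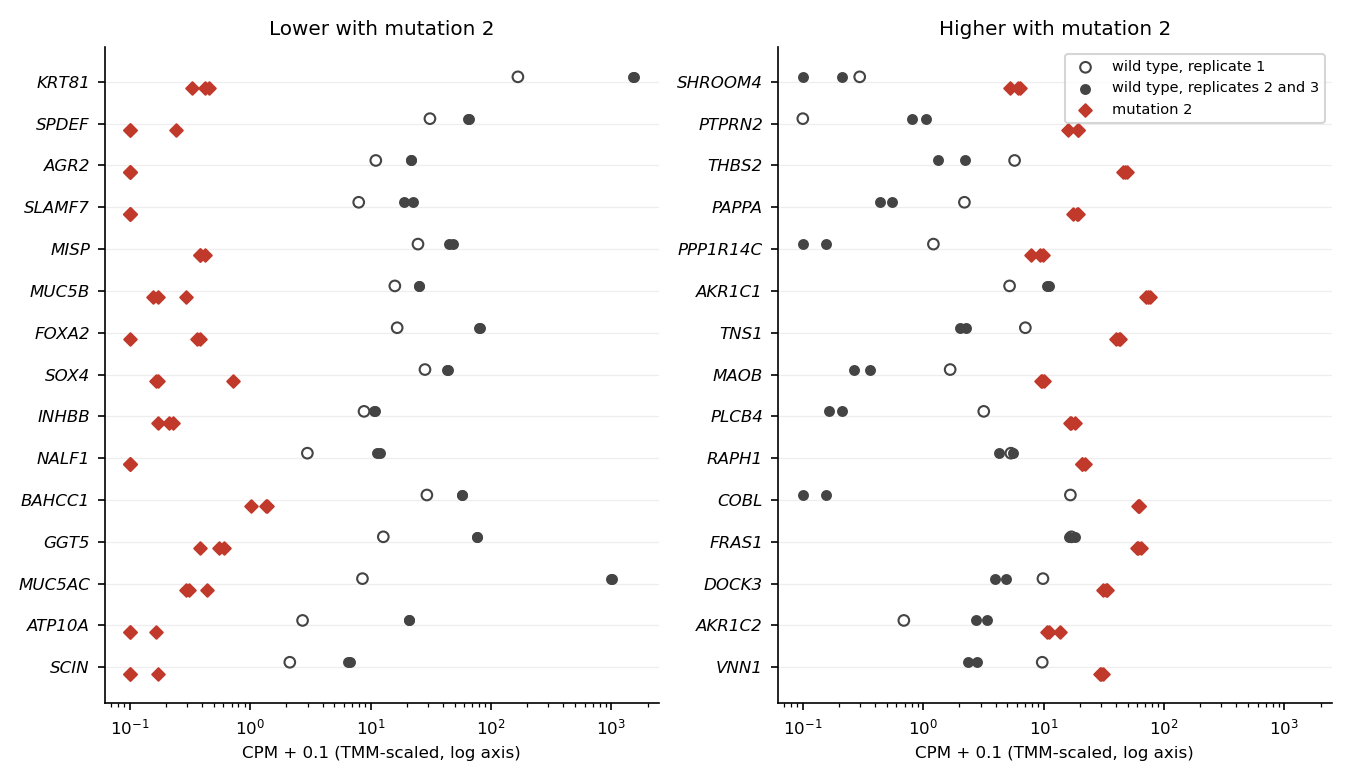
CPM + 0.1 on a log axis of the 15 genes with the widest gap downward (left) and upward (right), one point per library; open circles are wild-type replicate 1, filled circles wild-type replicates 2 and 3, and red diamonds the 3 mutation 2 libraries. In each gene all red diamonds lie on one side of all 3 wild-type points, and in the left panel the open circle is the wild-type point nearest to them.

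Among the 15 genes with the widest upward gap were secreted and matrix proteins, steroid-converting enzymes and actin regulators. THBS2, a matrix glycoprotein of the thrombospondin family, was at 5.64, 1.23 and 2.14 CPM in wild type and 49.2, 45.9 and 47.2 CPM with mutation 2 (log2 fold change 4.0, SE 0.37, adjusted p = 3.31e-05, and 4.84 without replicate 1). PAPPA, a secreted protease that cleaves the growth factor carrier IGFBP4, was at 2.1, 0.335 and 0.453 against 19.3, 17.4 and 18.8 CPM (log2 fold change 4.28, SE 0.45, adjusted p = 7.03e-05, and 5.54 without replicate 1). FRAS1, a basement membrane protein, gave tight groups, 16.9, 18 and 16.2 against 59.4, 64.8 and 60.6 CPM (log2 fold change 1.85, SE 0.07, adjusted p = 2.64e-07, and 1.85 without replicate 1). In all 3 genes the groups were well apart, and for THBS2 and PAPPA the highest wild-type library was replicate 1.

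The bases just upstream of THBS2 and PAPPA are shown because both hold the letters of a core element near the start, and those of AKR1C1 and AKR1C2 follow because these near-identical genes moved together. The sequences are the 250 bases before the RefSeq start (GRCh38.p14), 5′ to 3′ on the gene's strand. Capitals in THBS2 (chr6:169253847-169254096, minus strand) and PAPPA (chr9:116153541-116153790, plus strand) mark TATAAA, the TATA box letters, searched on the gene's strand and found 29 and 28 bases before the start, and in PAPPA also the forkhead letters TGTTTAC (both strands searched).
THBS2: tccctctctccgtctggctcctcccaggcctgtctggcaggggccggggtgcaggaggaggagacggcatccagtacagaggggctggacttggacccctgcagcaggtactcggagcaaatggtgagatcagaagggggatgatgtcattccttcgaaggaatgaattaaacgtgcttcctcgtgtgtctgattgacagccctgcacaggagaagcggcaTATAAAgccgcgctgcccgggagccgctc
PAPPA: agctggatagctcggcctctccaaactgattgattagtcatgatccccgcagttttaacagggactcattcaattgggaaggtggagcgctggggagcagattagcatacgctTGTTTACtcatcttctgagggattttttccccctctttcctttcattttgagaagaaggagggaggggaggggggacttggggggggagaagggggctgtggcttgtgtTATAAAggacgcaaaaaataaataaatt

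TATAAA occurred in 2 of the 11 upward genes that have an upstream sequence in the table and in 1 of 9 downward genes (SCIN), against 3.5% of 10843 promoters of tested genes. TGTTTAC, none of whose matches here overlapped another motif, occurred in 1 of 11 (PAPPA) and 1 of 9 (BAHCC1), against 1.93%. The letters of the antioxidant response element (TGACNNNGC) and of an AP-1 site (TGANTCA) were in none of the 20, against 12.1% and 4.13%, and the E-box CAGGTG (or CACCTG, the other strand) was in MISP and DOCK3, against 16.1%, each searched on both strands. A match describes letters in this window only.

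The AKR1C genes, which encode aldo-keto reductases that convert steroids and reactive carbonyls, are represented by 3 genes that rose. AKR1C1 was at 5.12, 11 and 10.5 CPM in wild type and 77.1, 73.6 and 70.5 CPM with mutation 2 (log2 fold change 3.05, SE 0.22, adjusted p = 8.07e-06, and 2.78 without replicate 1). AKR1C2 was at 0.591, 2.63 and 3.3 against 13.7, 11 and 10.6 CPM (log2 fold change 2.42, SE 0.45, adjusted p = 0.00184, and 1.99 without replicate 1). AKR1C3 was at 19.2, 24.9 and 25 against 71.8, 70.1 and 69.3 CPM (log2 fold change 1.61, SE 0.10, adjusted p = 2.47e-06, and 1.50 without replicate 1). In each the groups did not overlap, and wild-type replicate 1 was the lowest library. AKR1C1 (chr10:4963165-4963414, plus strand) and AKR1C2 (chr10:5003858-5004107, minus strand) are near-identical neighbours on chromosome 10, so their counts are uncertain. In RefSeq the 250 bases upstream of both starts share one run of 245 identical bases, shown in capitals (from 246 to 2 bases before the AKR1C1 start and 250 to 6 before the AKR1C2 start).
AKR1C1: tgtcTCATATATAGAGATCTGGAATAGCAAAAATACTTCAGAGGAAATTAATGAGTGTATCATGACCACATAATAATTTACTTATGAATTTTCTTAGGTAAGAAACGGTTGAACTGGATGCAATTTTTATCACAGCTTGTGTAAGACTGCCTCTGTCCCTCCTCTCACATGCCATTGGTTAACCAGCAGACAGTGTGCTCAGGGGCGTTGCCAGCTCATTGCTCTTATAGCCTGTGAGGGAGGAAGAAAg
AKR1C2: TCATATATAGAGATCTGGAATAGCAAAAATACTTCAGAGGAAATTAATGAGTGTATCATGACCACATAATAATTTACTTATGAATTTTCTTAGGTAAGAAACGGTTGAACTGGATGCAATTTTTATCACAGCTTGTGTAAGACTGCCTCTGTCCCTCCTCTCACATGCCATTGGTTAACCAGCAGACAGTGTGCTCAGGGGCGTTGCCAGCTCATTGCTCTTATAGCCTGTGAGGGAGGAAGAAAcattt

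Genes of the actin cytoskeleton and adhesion made up several of the other upward genes. TNS1, a focal adhesion protein, was at 6.96, 2.18 and 1.94 CPM in wild type and 40.1, 43.4 and 42.6 CPM with mutation 2 (log2 fold change 3.52, SE 0.38, adjusted p = 8.62e-05, and 4.35 without replicate 1). RAPH1, which promotes lamellipodia, was at 5.25, 4.19 and 5.5 against 20.9, 22 and 20.6 CPM (log2 fold change 2.09, SE 0.12, adjusted p = 2.09e-06, and 2.14 without replicate 1). SHROOM4, an actin-binding protein, was nearly absent in wild type (0.197, 0.112 and 0 CPM) and present with mutation 2 (5.98, 6.29 and 5.19 CPM, log2 fold change 5.71, SE 0.43, adjusted p = 3.3e-05). Without replicate 1, SHROOM4 had 2 counts in wild type (count ratio 96.5, exact 95% interval 26.5 to 801). DOCK3, an activator of the GTPase Rac, was at 9.78, 4.8 and 3.82 against 33.7, 31.3 and 33 CPM (log2 fold change 2.42, SE 0.26, adjusted p = 8.13e-05, and 2.91 without replicate 1). COBL, an actin nucleator, was at 16.6, 0.0559 and 0 CPM in wild type, where replicate 1 alone held most of it, and 60.4, 61.5 and 61.9 with mutation 2 (log2 fold change 3.49, SE 1.06, adjusted p = 0.0253). Without replicate 1, COBL had 1 count in wild type (count ratio 2045, exact 95% interval 367 to 80803). COBL was not called when any one mutation 2 library was left out (adjusted p 0.0608 to 0.0633) or in the fit of 6 libraries (adjusted p = 0.165). It was not called with no filter either (adjusted p = 0.111 by edgeR's test), and DESeq2 gave it no adjusted p. Its log2 fold change was 2.88 without wild-type replicate 2.

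The remaining upward genes are enzymes and signalling proteins. PTPRN2, a receptor-type phosphatase of secretory granules, was at 0, 0.95 and 0.712 CPM in wild type and 19.4, 15.8 and 19.2 CPM with mutation 2 (log2 fold change 4.97, SE 0.60, adjusted p = 0.000364, and 4.43 without replicate 1), and 5.63 without wild-type replicate 2. PPP1R14C, an inhibitor of protein phosphatase 1, was at 1.12, 0.0559 and 0 against 7.81, 9.79 and 9.31 CPM (log2 fold change 4.55, SE 0.79, adjusted p = 0.00132). Without replicate 1, PPP1R14C had 1 count in wild type (count ratio 301, exact 95% interval 53.7 to 11909). MAOB, which oxidises monoamines in mitochondria, was at 1.58, 0.168 and 0.259 against 9.36, 9.92 and 9.59 CPM (log2 fold change 3.87, SE 0.53, adjusted p = 0.000306, and 5.47 without replicate 1). In these 3 genes every mutation 2 library lay several-fold above the highest wild-type library. PLCB4, a phospholipase C, was at 3.08, 0.112 and 0.0647 against 18.2, 16.4 and 16.8 CPM (log2 fold change 4.01, SE 0.73, adjusted p = 0.0017). Without replicate 1, PLCB4 had 3 counts in wild type (count ratio 190, exact 95% interval 64.8 to 923). VNN1, a pantetheinase of the cell surface, was at 9.65, 2.68 and 2.26 against 30.9, 29.9 and 29.4 CPM (log2 fold change 2.64, SE 0.42, adjusted p = 0.000767, and 3.60 without replicate 1).

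Setting the same genes beside the other mutants shows where mutation 2 lay among the 4 groups. Against wild type all 3 mutants share the same controls, so means are given side by side, and only the direct contrasts of mutants were tested. In those, 9879 genes (65.4%) differed between mutation 2 and mutation 1 and 7980 (52.9%) between mutation 2 and mutation 3. Of the 15 upward genes, 11 were also higher with mutation 2 than with both other mutants, and of the 15 downward genes 2 were also lower than with both, KRT81 and BAHCC1. Over all genes tested, 891 (5.9%) were called higher and 971 (6.43%) lower with mutation 2 than with wild type, mutation 1 and mutation 3 alike. MUC5AC, SPDEF and AGR2 were low in all mutants: MUC5AC had means of 0.0224 CPM with mutation 1 and 0.217 with mutation 3, SPDEF 0.435 and 0.27, and AGR2 0.0458 and 0.

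PTPRN2 was near 0 with the other mutants (0.0937 CPM with mutation 1, 0 with mutation 3), and was called higher with mutation 2 than with mutation 1 (log2 fold change 7.44, adjusted p = 3.59e-05) and with mutation 3, where it had no count (at least 89.7-fold higher, adjusted p = 3.96e-05). COBL had means of 5.21 and 3.83 CPM there, AKR1C1 11.6 and 9.08, and TNS1 6.16 and 1.3, and mutation 2 was called higher than both in each. THBS2 was not called between mutation 2 and mutation 1 (mean 52.3 CPM with mutation 1, difference -0.14, SE 0.30, adjusted p = 0.697) and was lower with mutation 3 (4.25 CPM, difference 3.48, adjusted p = 1.52e-05). PLCB4 had the other pattern, 1.92 CPM with mutation 1 and 24.6 with mutation 3, where mutation 2 was not called apart (-0.52, SE 0.57, adjusted p = 0.468). RAPH1 was higher with mutation 1 than with mutation 2 (33.8 CPM, difference -0.67, adjusted p = 0.000251).

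**Figure D3:**
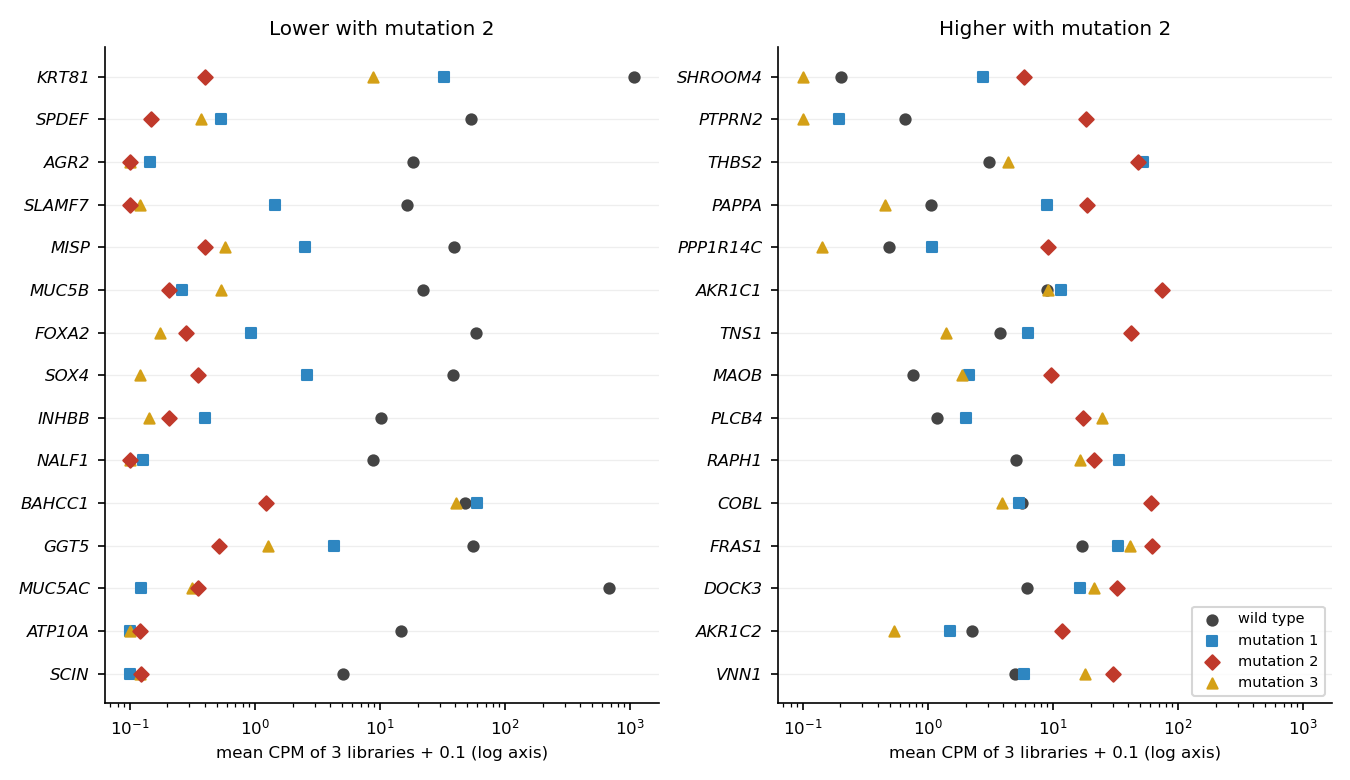
Mean CPM + 0.1 of 3 libraries on a log axis for the same 30 genes in wild type (circles), mutation 1 (squares), mutation 2 (diamonds) and mutation 3 (triangles). Most of the left panel is low in all 3 mutants, with BAHCC1 low in mutation 2 alone; in the right panel PTPRN2, AKR1C1, TNS1 and COBL are highest in mutation 2.

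In absolute terms the largest falls were in abundant transcripts of the secreted, cytoskeletal and housekeeping kind. IGFBP4, the carrier that PAPPA cleaves, had the largest, from 4346, 6626 and 6641 CPM to 2006, 2129.7 and 2129.6 CPM (log2 fold change -1.49, SE 0.13, adjusted p = 2.89e-05, and -1.66 without replicate 1). VIM, the intermediate filament of mesenchymal cells, went from 987, 1883 and 1873 to 733, 744 and 723 CPM (log2 fold change -1.11, SE 0.19, adjusted p = 0.00125, and -1.35 without replicate 1). ACTG1, cytoplasmic gamma-actin, went from 4652, 3606 and 3535 to 2903, 3004 and 3006 CPM (log2 fold change -0.40, SE 0.09, adjusted p = 0.00628, and -0.26 without replicate 1). GAPDH, a glycolytic enzyme often used as a reference gene, went from 2599.8, 2419.9 and 2406 to 1799, 1794 and 1741 CPM (log2 fold change -0.48, SE 0.05, adjusted p = 0.000105, and -0.43 without replicate 1). Neither group overlapped the other in any of these 4 genes, and VIM in wild-type replicate 1 lay nearer to mutation 2 than to the other wild-type libraries. DUSP4, a phosphatase that acts on MAP kinases, was at 372, 1082 and 1086 against 333, 352 and 339 CPM (log2 fold change -1.31, SE 0.30, adjusted p = 0.00642, and -1.66 without replicate 1).

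The largest rises in CPM included crosslinking and actin-binding proteins. TGM2, tissue transglutaminase, went from 1376, 569 and 569.9 CPM to 2153, 2212 and 2216 CPM (log2 fold change 1.39, SE 0.28, adjusted p = 0.00303, and 1.95 without replicate 1). MYH9, the heavy chain of non-muscle myosin, went from 1892, 1959 and 1928 to 2362, 2511 and 2536 CPM (log2 fold change 0.36, SE 0.05, adjusted p = 0.000477, and 0.35 without replicate 1). For MYH9 the 3 wild-type libraries were close to each other and below each mutation 2 library. CD74, the invariant chain of MHC class II, went from 606, 669 and 657 to 1195, 1169.7 and 1191 CPM (log2 fold change 0.88, SE 0.05, adjusted p = 3.08e-06, and 0.84 without replicate 1). FLNA (2992, 3478 and 3376 against 3659, 3846 and 3935 CPM, log2 fold change 0.22, SE 0.07, adjusted p = 0.0261, and 0.16 without replicate 1) was not called without the second or the third mutation 2 library. PTPRF, TXNRD1 and CANX were called with all libraries, at log2 fold changes of 1.59, 1.03 and 0.71, but not when any one library other than wild-type replicate 1 was left out; without replicate 1 the values were 2.76, 1.80 and 1.16.

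The gene lists are described by how many tested members were called, to be read against the 16.9% of all genes tested that were higher and the 20.1% that were lower (33% and 34.9% without wild-type replicate 1, 8.73% and 9.76% in the fit of the 6 libraries). For the microRNA machinery, 13 of 30 tested members rose and 4 fell (median log2 fold change 0.17). The counts were 17 and 9 without wild-type replicate 1 (median 0.14). Any other library left out gave 7 to 10 and 3, and the 6 libraries alone 6 and 1. DROSHA, the nuclear ribonuclease, was at 77.8, 75.2 and 73.2 CPM in wild type and 105, 103 and 104 CPM with mutation 2 (log2 fold change 0.46, SE 0.05, adjusted p = 8.11e-05, and 0.49 without replicate 1). TNRC6C, one of the scaffolds that silence bound mRNA, was at 14.8, 14 and 11.9 against 30.8, 27.2 and 25.7 CPM (log2 fold change 1.04, SE 0.10, adjusted p = 4.36e-05, and 1.10 without replicate 1). Of the Argonautes, AGO2 (19, 14.1 and 15.1 against 27.1, 28.8 and 27.5 CPM, log2 fold change 0.79, and 0.93 without replicate 1) and AGO4 (12.9, 9.05 and 9.83 against 18.7, 18.9 and 20.9 CPM, log2 fold change 0.89, and 1.06 without replicate 1) rose. In these 4 genes every mutation 2 library lay above every wild-type library. TARBP2, the double-stranded RNA-binding partner of Dicer, fell from 27.4, 41.2 and 44.1 to 22.1, 22 and 23.7 CPM (log2 fold change -0.73, SE 0.16, adjusted p = 0.00553, and -0.90 without replicate 1). So did RAN, the GTPase used for nuclear export of precursors (447, 604 and 596 to 399, 402 and 393 CPM, log2 fold change -0.47, and -0.59 without replicate 1). DGCR8, the partner of DROSHA, was not called (35.7, 61.2 and 61 against 51.9, 57 and 56.6 CPM, 0.07), and had the other sign and a call without wild-type replicate 1 (-0.14, adjusted p = 0.0202). TNRC6A was not called in either fit (0.16 and -0.08).

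Mature microRNAs leave a trace in mRNA data only through their sites, so the mRNA changes were set beside matches to microRNA seeds. Sequences for 13 of 14 chosen microRNAs were in the RefSeq table (GRCh38.p14), and no 2 of them share a seed. The 5 below are the let-7 and miR-200 families named above, 2 microRNAs abundant in breast cancer lines, and the one with the widest difference, with the seed (bases 2 to 8) in capitals.
let-7a-5p: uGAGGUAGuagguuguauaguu
miR-200b-3p: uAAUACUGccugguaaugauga
miR-21-5p: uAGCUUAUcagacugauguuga
miR-221-3p: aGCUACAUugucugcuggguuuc
miR-27a-3p: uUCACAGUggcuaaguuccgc

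A site was a 7-base match in the annotated 3′ UTR to the complement of the seed (CTACCTC for let-7a-5p, CAGTATT for miR-200b-3p, ATAAGCT for miR-21-5p, ATGTAGC for miR-221-3p and ACTGTGA for miR-27a-3p), over 12493 genes. Genes with a site had a higher median log2 fold change than genes without one for 13 of 13 microRNAs, by 0.0534 to 0.1243. The length of the 3′ UTR moved with this: the median was -0.116 in the 4167 genes with the shortest 3′ UTRs, -0.0231 in the 4162 in the middle and 0.0874 in the 4164 with the longest (1845 bases or more), and long 3′ UTRs hold more sites of any kind. Within the shortest class the differences ran from -0.1691 to 0.1155, and 10 of 13 were above 0 (8 of 13 without wild-type replicate 1). In the middle class they ran from -0.0487 to 0.0788, and 8 of 13 were above 0 (10 of 13 without that library). Within the longest class the differences ran from -0.0159 to 0.0616, and 8 of 13 were above 0 (6 of 13 without wild-type replicate 1). There, 825 genes with a let-7a-5p site had a median of 0.0763 against 0.0891 for 3339 without, and for miR-27a-3p the values were 0.1296 for 1357 genes and 0.0681 for 2807. The difference for miR-200b-3p was -0.012 and for miR-21-5p 0.0063. These are descriptions over genes, which are not replicates.

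Among transcripts that host microRNAs, 2 of 16 tested members rose and 3 fell (median log2 fold change -0.28). Leaving out wild-type replicate 1 gave 6 and 9 (median -0.40). They were 1 to 2 and 1 to 2 with each other library left out, and 0 and 1 in the fit of the 6 libraries. MIR222HG, the host of miR-221 and miR-222, was higher with mutation 2, 25.6, 23 and 23.5 CPM against 6.89, 16.3 and 15.1 in wild type (log2 fold change 0.91, SE 0.23, adjusted p = 0.0115, and 0.62 without replicate 1). CTDSP1, host of a miR-26 gene, was lower, 80.4, 79.2 and 79.4 against 102, 115 and 114 CPM (log2 fold change -0.47, SE 0.05, adjusted p = 0.000127, and -0.52 without replicate 1). Of known let-7 targets, 6 of 27 tested members rose and 6 fell (median log2 fold change -0.09). In the fit without wild-type replicate 1, 11 rose and 13 fell (median -0.06). With any other library left out, 4 to 5 rose and 2 to 3 fell, and with the 6 libraries alone 2 and 1. CDC25A, a phosphatase that drives entry into S phase, rose from 41.9, 34.2 and 35.5 to 54.5, 60.8 and 61.8 CPM (log2 fold change 0.67, and 0.77 without replicate 1). CCNJ, a cyclin, rose from 14, 10.6 and 8.35 to 18.7, 17.8 and 17.9 CPM (log2 fold change 0.73, and 0.94 without replicate 1). Rises and falls among the let-7 targets were thus equal in number with all libraries. Both targets named here are among the 6 that rose, and none of the 6 that fell is named beside them.

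Genes of the mesenchymal and epithelial states moved in both directions. Of mesenchymal markers, 3 of 23 tested members rose and 8 fell (median log2 fold change -0.10). These became 10 and 10 when wild-type replicate 1 was left out (median 0.14). The other libraries, left out in turn, gave 3 and 7 to 8, and the 6 libraries alone 2 and 6. FN1, the matrix protein fibronectin, fell from 236, 496 and 492 CPM to 75, 77.1 and 70.2 CPM (log2 fold change -2.46, SE 0.23, adjusted p = 3.31e-05, and -2.73 without replicate 1). CDH11, a mesenchymal cadherin, fell from 252, 235 and 225 to 111, 117 and 122 CPM (log2 fold change -1.02, SE 0.06, adjusted p = 2.47e-06, and -0.97 without replicate 1). TNC, the matrix glycoprotein tenascin-C, rose from 70.7, 62.2 and 62.4 to 128, 135 and 134 CPM (log2 fold change 1.02, SE 0.06, adjusted p = 2.81e-06, and 1.09 without replicate 1). LOXL2, which crosslinks collagen, fell from 544, 606 and 603 to 415, 443 and 435 CPM (log2 fold change -0.44, and -0.48 without replicate 1). In these 4 genes the groups did not overlap. Of the factors of epithelial-mesenchymal transition, 1 of 13 tested members rose and 3 fell (median log2 fold change -0.15). With wild-type replicate 1 left out, 4 rose and 7 fell (median -0.28). For each other library left out they were 1 and 1 to 2, and in the fit of the 6 libraries 1 and 1. ZEB1, a miR-200 target that represses epithelial genes, was not called: wild-type replicate 1 was at 29 CPM, wild-type replicates 2 and 3 at 76 and 81, and mutation 2 between, at 40.1, 40.6 and 39.8 CPM (-0.63, adjusted p = 0.103; -0.96 without replicate 1, adjusted p = 1.19e-36). EHF, an epithelial ETS factor, rose from 75.7, 82.2 and 81.3 to 125, 127 and 123 CPM (log2 fold change 0.65, and 0.62 without replicate 1). KLF5 fell from 37.3, 45.8 and 45.3 to 27.7, 23.7 and 24.3 CPM (log2 fold change -0.76, and -0.85 without replicate 1).

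Of epithelial markers, 3 of 30 tested members rose and 10 fell (median log2 fold change -0.45). When wild-type replicate 1 was left out there were 13 and 12 (median 0.16). Leaving out each other library in turn left 2 and 6 to 10, and the fit of the 6 libraries 2 and 5. The median thus changed sign with that 1 library. JUP, the junction protein plakoglobin, fell from 172, 184 and 178 to 109.6, 115 and 114 CPM (log2 fold change -0.66, SE 0.05, adjusted p = 1.3e-05, and -0.68 without replicate 1). SPINT2, a protease inhibitor of epithelia, fell from 283, 370.4 and 376 to 187, 202 and 205 CPM (log2 fold change -0.79, SE 0.09, adjusted p = 0.000144, and -0.91 without replicate 1). DSC2, a desmosomal cadherin, fell from 9.65, 4.86 and 5.11 to 1.9, 2.27 and 2.37 CPM (log2 fold change -1.57, SE 0.26, adjusted p = 0.00106, and -1.17 without replicate 1). LAMB3, a chain of laminin-332, rose from 556, 613 and 603 to 882, 961 and 926 CPM (log2 fold change 0.64, SE 0.06, adjusted p = 2.24e-05, and 0.61 without replicate 1). For CDH1, E-cadherin, the call rested on wild-type replicate 1: the levels were 13.8, 1.17 and 1.23 CPM in wild type and 1.2, 0.584 and 0.621 with mutation 2 (-2.76, adjusted p = 0.0319), and without that library the value was -0.61 (adjusted p = 0.11); it was also lost without any one mutation 2 library (adjusted p 0.0594 to 0.101) and in the fit of 6 libraries (0.146). DSP, the desmosomal plaque protein, was not called (132, 11.5 and 9.83 against 155, 170.5 and 166 CPM, adjusted p = 0.104), although all mutation 2 libraries were above all wild-type libraries, and without wild-type replicate 1 its value was 3.94 (adjusted p = 4.36e-102). Among keratins, 1 of 9 tested members rose and 4 fell (median log2 fold change -0.21). Once wild-type replicate 1 was left out, 4 rose and 5 fell (median -0.15). Any other library left out gave 1 and 2 to 4, and the 6 libraries alone 1 and 2.

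Matrix, adhesion and protease genes were called in both directions too. Of collagen and matrix genes, 7 of 31 tested members rose and 8 fell (median log2 fold change -0.12). The counts were 15 and 12 without wild-type replicate 1 (median 0.02). They were 6 to 7 and 6 with each other library left out, and 4 and 4 in the fit of the 6 libraries. HSPG2, the basement membrane proteoglycan perlecan, rose from 125, 194 and 184 CPM to 472, 546 and 534 CPM (log2 fold change 1.62, SE 0.14, adjusted p = 1.91e-05, and 1.46 without replicate 1). FBN1, the microfibril protein fibrillin-1, fell from 21.1, 44 and 43.7 to 12.2, 13.2 and 12.8 CPM (log2 fold change -1.51, SE 0.23, adjusted p = 0.000591, and -1.77 without replicate 1). FBLN1, fibulin-1, fell from 9.12, 20.4 and 19.4 to 5.14, 3.83 and 4.4 CPM (log2 fold change -1.88, SE 0.27, adjusted p = 0.000459, and -2.16 without replicate 1). Of integrins and focal adhesion genes, 6 of 31 tested members rose and 11 fell (median log2 fold change -0.28). Leaving out wild-type replicate 1 gave 11 and 18 (median -0.34). With any other library left out, 4 to 6 rose and 9 fell, and with the 6 libraries alone 3 and 6. ITGB1, the beta-1 integrin shared by most matrix receptors, fell from 1291, 1237 and 1232 to 875, 863 and 857 CPM (log2 fold change -0.54, SE 0.05, adjusted p = 2.42e-05, and -0.51 without replicate 1). TNS4, a tensin, fell from 13.1, 51 and 53.4 to 0.704, 0.973 and 1.13 CPM (log2 fold change -5.36, SE 0.55, adjusted p = 5.96e-05, and -5.76 without replicate 1), while its relatives TNS1 (above) and TNS3 (192, 143 and 137 to 209.5, 229 and 236 CPM, log2 fold change 0.52, and 0.69 without replicate 1) rose. Of proteases and inhibitors, 5 of 28 tested members rose and 11 fell (median log2 fold change -0.12). In the fit without wild-type replicate 1, 12 rose and 15 fell (median -0.20). The other libraries, left out in turn, gave 4 to 5 and 6 to 7, and the 6 libraries alone 4 and 4. PLAU, the urokinase-type plasminogen activator, rose from 372, 473 and 472 to 625, 649.5 and 618 CPM (log2 fold change 0.52, and 0.42 without replicate 1). The matrix proteases ADAMTS1 (6.89, 6.31 and 5.82 to 1.27, 1.62 and 1.52 CPM, log2 fold change -2.10, and -2.03 without replicate 1) and ADAM12 (1.12, 9.05 and 8.99 to 0.915, 0.519 and 0.677 CPM, log2 fold change -3.18, and -3.67 without replicate 1) fell. For ADAM12, wild-type replicate 1 lay near the mutation 2 libraries.

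**Figure D4:**
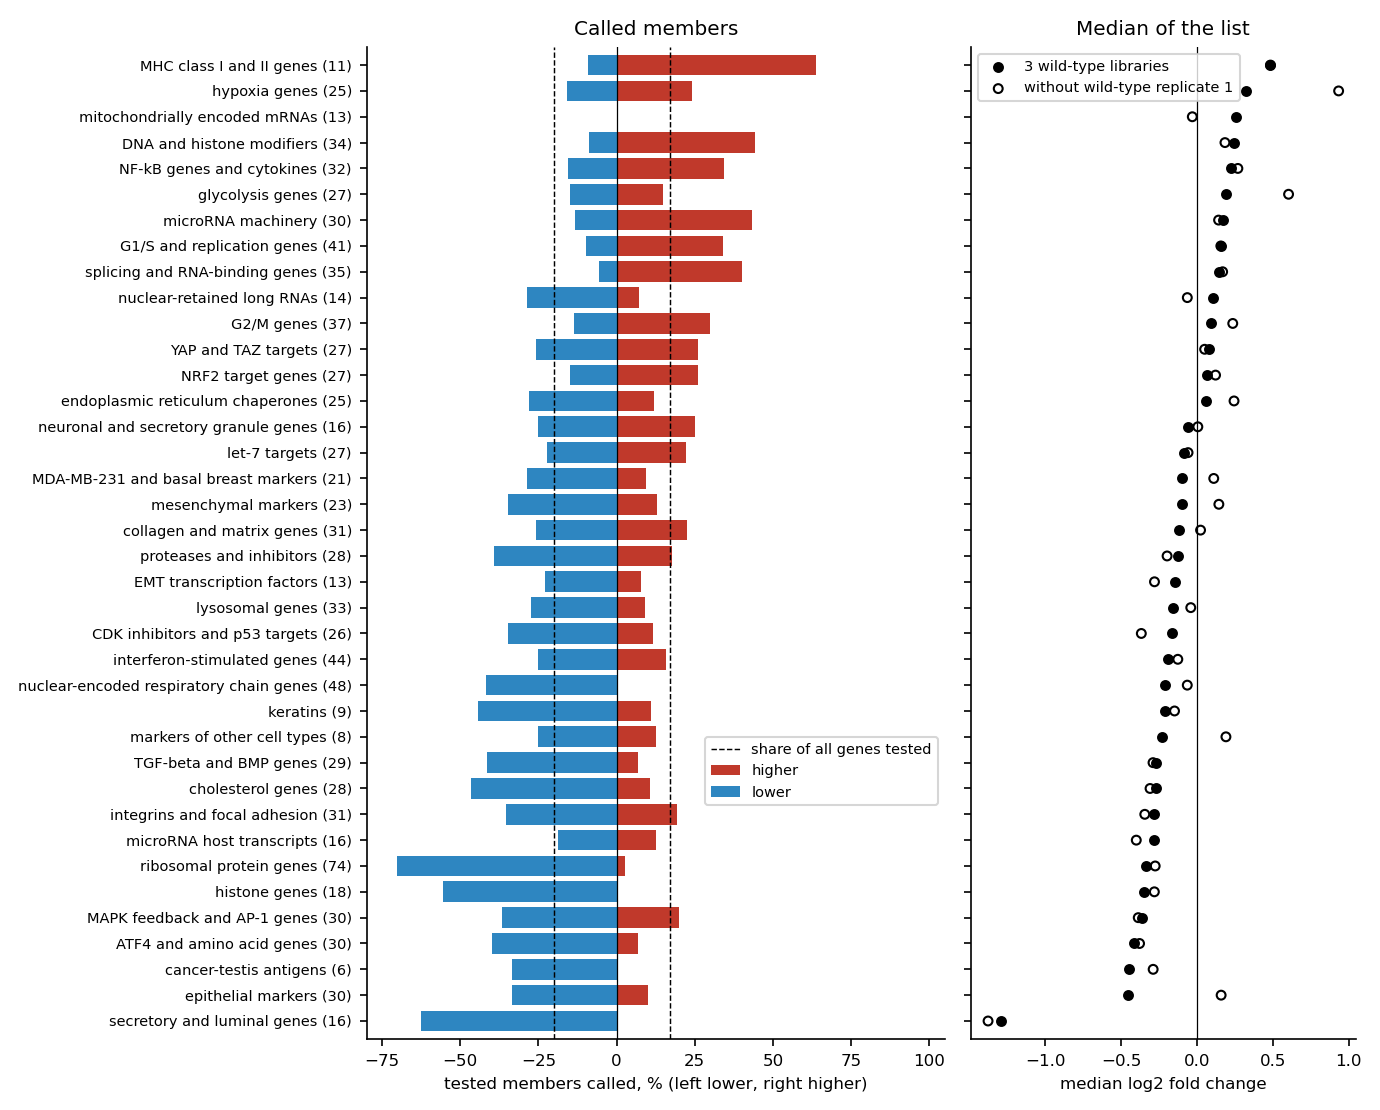
Left: share of the tested members of each of 38 gene lists called higher (red) or lower (blue) with mutation 2, in percent, with the number tested in parentheses and dashed lines at the shares of all genes tested (16.9% and 20.1%). Right: median log2 fold change with 3 wild-type libraries (filled) and without wild-type replicate 1 (open); the medians of the epithelial and hypoxia lists move by 0.61 between the fits, and that of secretory and luminal genes stays lowest.

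Immune genes included a list with mostly upward calls. Of MHC class I and II genes, 7 of 11 tested members rose and 1 fell (median log2 fold change 0.48). These became 6 and 2 when wild-type replicate 1 was left out (median 0.48). For each other library left out they were 5 to 6 and 0, and in the fit of the 6 libraries 3 and 0. Besides CD74 they included ERAP1 and ERAP2, the aminopeptidases that trim peptides for presentation. ERAP1 rose from 77.1, 64.5 and 62.2 to 94.6, 97.1 and 93.5 CPM (log2 fold change 0.48, and 0.59 without replicate 1). ERAP2 rose from 9.12, 9.38 and 9.06 to 13.2, 12.7 and 12.7 CPM (log2 fold change 0.49, and 0.48 without replicate 1). So did NLRC5, the transactivator of class I genes (37.4, 30.6 and 32.6 to 42.4, 44.2 and 42.8 CPM, log2 fold change 0.36, and 0.46 without replicate 1). The other 12 of the 23 list members were not tested. Of interferon-stimulated genes, 7 of 44 tested members rose and 11 fell (median log2 fold change -0.19). With wild-type replicate 1 left out, 13 rose and 21 fell (median -0.13). Leaving out each other library in turn left 4 to 6 and 6 to 10, and the fit of the 6 libraries 3 and 6. OAS3, a sensor of double-stranded RNA, rose from 31, 40.4 and 35.6 to 53.2, 53.7 and 55.1 CPM (log2 fold change 0.60, and 0.51 without replicate 1). So did the sensor IFIH1 (17.5, 8.83 and 9.96 to 23.2, 22 and 22.6 CPM, log2 fold change 0.90, and 1.28 without replicate 1). IFITM2, a membrane protein that blocks virus entry, fell from 42.9, 59.3 and 62.9 to 24.6, 24.1 and 23.3 CPM (log2 fold change -1.20, and -1.34 without replicate 1). GBP2, a guanylate-binding protein, fell from 68.7, 70.8 and 71.9 to 40.9, 41.8 and 41.7 CPM (log2 fold change -0.77, and -0.78 without replicate 1).

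Of NF-kB genes and cytokines, 11 of 32 tested members rose and 5 fell (median log2 fold change 0.22). When wild-type replicate 1 was left out there were 20 and 9 (median 0.27). Any other library left out gave 7 to 9 and 4 to 5, and the 6 libraries alone 6 and 4. TNFAIP3, a feedback inhibitor of NF-kB, rose from 14.9, 8.6 and 8.09 to 28.9, 28.8 and 30 CPM (log2 fold change 1.48, SE 0.18, adjusted p = 0.000186, and 1.81 without replicate 1). TRAF1, an adaptor of TNF receptors, rose from 24.7, 30.8 and 29.8 to 54.8, 55.1 and 56.8 CPM (log2 fold change 0.97, SE 0.09, adjusted p = 3.19e-05, and 0.88 without replicate 1). BIRC3, an inhibitor of apoptosis, rose from 125, 95.6 and 93.9 to 177, 172 and 172 CPM (log2 fold change 0.73, and 0.88 without replicate 1). NFKBIA, which holds NF-kB in the cytoplasm, fell from 176, 206 and 206 to 135, 132 and 144 CPM (log2 fold change -0.52, and -0.58 without replicate 1). IL11, a cytokine linked to bone metastasis in this line, fell from 52.2, 57.4 and 56.7 to 7.88, 7.01 and 6.83 CPM (log2 fold change -2.94, SE 0.08, adjusted p = 2.23e-08, and -2.98 without replicate 1). CSF3, the granulocyte growth factor, fell from 16.1, 30.9 and 28.6 to 9.22, 8.95 and 7.84 CPM (log2 fold change -1.54, SE 0.21, adjusted p = 0.0003, and -1.78 without replicate 1).

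Cell cycle genes were called higher more often than lower. Of G1/S and replication genes, 14 of 41 tested members rose and 4 fell (median log2 fold change 0.16). Once wild-type replicate 1 was left out, 26 rose and 10 fell (median 0.16). They were 11 to 14 and 2 with each other library left out, and 8 and 1 in the fit of the 6 libraries. CLSPN, a checkpoint mediator, rose from 60.7, 53.2 and 56.2 to 89.6, 82.3 and 87.9 CPM (log2 fold change 0.61, and 0.67 without replicate 1). POLA1, the catalytic subunit of the primase-polymerase, rose from 53.5, 36.6 and 33 to 74, 77.6 and 74.1 CPM (log2 fold change 0.88, and 1.11 without replicate 1). MCM2, a subunit of the replicative helicase, rose from 185, 174 and 166 to 215, 219 and 226 CPM (log2 fold change 0.33, and 0.38 without replicate 1). CDT1, the licensing factor, fell from 67.5, 103 and 102 to 57.6, 58.2 and 59.5 CPM (log2 fold change -0.64, and -0.80 without replicate 1). In the direct contrasts of mutants, 39 of the 41 genes were higher with mutation 2 than with mutation 1 (median difference 1.29; 33.6% of all genes tested were higher) and 39 than with mutation 3 (1.21; 27.2% of all genes). MCM10, for example, was at 48.6, 49.8 and 50.2 CPM in wild type and 66.9, 69 and 66.2 with mutation 2, but had means of 10.3 with mutation 1 and 13.4 with mutation 3. Of G2/M genes, 11 of 37 tested members rose and 5 fell (median log2 fold change 0.09). The counts were 25 and 8 without wild-type replicate 1 (median 0.24). With any other library left out, 9 to 11 rose and 3 to 4 fell, and with the 6 libraries alone 5 and 2. TTK, a spindle checkpoint kinase, rose from 64.4, 53.3 and 54.2 to 94.3, 88.7 and 89.5 CPM (log2 fold change 0.67, and 0.76 without replicate 1). UBE2C, which works with the anaphase-promoting complex, fell from 232, 232 and 239 to 186, 172 and 182 CPM (log2 fold change -0.38, and -0.38 without replicate 1).

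Of CDK inhibitors and p53 targets, 3 of 26 tested members rose and 9 fell (median log2 fold change -0.16). Leaving out wild-type replicate 1 gave 8 and 14 (median -0.37). The other libraries, left out in turn, gave 2 to 3 and 9 to 10, and the 6 libraries alone 2 and 9. CDKN1A, the p21 inhibitor, fell from 79.5, 107 and 103 to 57.1, 58.7 and 55.6 CPM (log2 fold change -0.76, SE 0.10, adjusted p = 0.000234, and -0.87 without replicate 1). CDKN2D, the p19 inhibitor of cyclin-dependent kinases, fell from 58.1, 51.9 and 52.1 to 29.6, 31.3 and 33 CPM (log2 fold change -0.79, SE 0.07, adjusted p = 1.9e-05, and -0.72 without replicate 1). GADD45B, a stress sensor, fell from 36.5, 51.9 and 51.4 to 21.7, 25.4 and 23.2 CPM (log2 fold change -0.99, and -1.13 without replicate 1). PMAIP1, the death protein NOXA, rose from 78, 54.4 and 53.3 to 105, 102 and 101 CPM (log2 fold change 0.73, and 0.93 without replicate 1). The death receptor FAS rose from 4.27, 2.57 and 3.56 to 5.91, 6.29 and 6.66 CPM (log2 fold change 0.86, and 1.06 without replicate 1).

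Among ribosomal protein genes and genes of the respiratory chain, falls outnumbered rises. Of ribosomal protein genes, 2 of 74 tested members rose and 52 fell (median log2 fold change -0.34). In the fit without wild-type replicate 1, 10 rose and 57 fell (median -0.28). For each other library left out they were 1 to 2 and 45 to 55, and in the fit of the 6 libraries 0 and 30. RPL13A, for one, went from 1664, 1764 and 1737 CPM to 1147, 1199 and 1175 CPM (log2 fold change -0.55, SE 0.05, adjusted p = 2.96e-05, and -0.57 without replicate 1). RPL24 went from 543, 539.7 and 543 to 397, 401 and 395 CPM (log2 fold change -0.45, and -0.44 without replicate 1). RPS29 went from 289, 318 and 328 to 166, 133 and 159 CPM (log2 fold change -1.03, and -1.08 without replicate 1). RPS12 went the other way, 617, 623 and 613 to 713, 716 and 751 CPM (log2 fold change 0.23, and 0.24 without replicate 1). Many ribosomal protein genes have processed copies elsewhere in the genome, so their counts are uncertain. Of nuclear-encoded genes of the respiratory chain, 0 of 48 tested members rose and 20 fell (median log2 fold change -0.21). These became 14 and 21 when wild-type replicate 1 was left out (median -0.06). Leaving out each other library in turn left 0 and 14 to 18, and the fit of the 6 libraries 0 and 10. For the 0 that rose by edgeR's test the count was 1 at an unadjusted p under 0.05 and 0 by DESeq2. COX4I1, a subunit of cytochrome c oxidase, fell from 232, 276 and 277 to 161, 165 and 166 CPM (log2 fold change -0.67, and -0.75 without replicate 1). ATP5F1B, the beta subunit of ATP synthase, fell from 721, 834 and 850.3 to 546, 529.9 and 538 CPM (log2 fold change -0.58, and -0.64 without replicate 1). Of 13 mitochondrially encoded mRNAs 0 were called by edgeR's test, with 1 at an unadjusted p under 0.05 and 0 called by DESeq2. Without wild-type replicate 1, in which these mRNAs were low, 3 rose and 3 fell.

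Hypoxia and glycolysis genes gave far more upward calls without wild-type replicate 1. Of hypoxia genes, 6 of 25 tested members rose and 4 fell (median log2 fold change 0.33). With wild-type replicate 1 left out, 19 rose and 4 fell (median 0.93). Any other library left out gave 3 to 4 and 2 to 4, and the 6 libraries alone 2 and 2. Of glycolysis genes, 4 of 27 tested members rose and 4 fell (median log2 fold change 0.19). When wild-type replicate 1 was left out there were 21 and 4 (median 0.60). They were 1 and 2 to 3 with each other library left out, and 1 and 2 in the fit of the 6 libraries. The mean level of the glycolysis list, on a log2(CPM + 1) scale, was 8.06, 7.15 and 7.12 in the wild-type libraries and 7.83, 7.87 and 7.88 with mutation 2, so that wild-type replicate 1 lay above mutation 2 and the other wild-type libraries below it. HK2, the hexokinase of many tumours, was above all wild-type libraries (73.3, 31.1 and 29.7 to 145, 142 and 149.9 CPM, log2 fold change 1.71, SE 0.28, adjusted p = 0.0009, and 2.27 without replicate 1). HIF1A, the oxygen-regulated transcription factor, fell from 212, 327 and 343 to 160.4, 171 and 164 CPM (log2 fold change -0.83, SE 0.14, adjusted p = 0.00109, and -1.02 without replicate 1). So did ADM, the peptide adrenomedullin (55.8, 40.3 and 39.1 to 23.3, 23.4 and 23.2 CPM, log2 fold change -0.95, and -0.77 without replicate 1). ANGPTL4, a secreted inhibitor of lipoprotein lipase, rose from 7.81, 16.3 and 13.5 to 30.5, 28.4 and 27.1 CPM (log2 fold change 1.19, and 0.94 without replicate 1).

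Of ATF4 and amino acid genes, 2 of 30 tested members rose and 12 fell (median log2 fold change -0.41). Once wild-type replicate 1 was left out, 8 rose and 19 fell (median -0.38). With any other library left out, 2 to 3 rose and 8 to 12 fell, and with the 6 libraries alone 1 and 4. PHGDH, the first enzyme of serine synthesis, rose from 16.9, 9.66 and 11.9 to 43.4, 44 and 46 CPM (log2 fold change 1.79, SE 0.17, adjusted p = 3.31e-05, and 2.06 without replicate 1). SLC3A2, the shared chain of several amino acid transporters, fell from 377, 377 and 383 to 251, 256 and 259 CPM (log2 fold change -0.57, SE 0.05, adjusted p = 1.36e-05, and -0.56 without replicate 1). Its partner SLC7A5 fell from 1035, 841 and 819.5 to 598, 623 and 629.9 CPM (log2 fold change -0.54, and -0.42 without replicate 1). DDIT3, the stress factor CHOP, fell from 9.65, 22 and 19.9 to 6.19, 7.85 and 7.78 CPM (log2 fold change -1.24, and -1.51 without replicate 1). Of endoplasmic reticulum chaperones, 3 of 25 tested members rose and 7 fell (median log2 fold change 0.06). The counts were 15 and 7 without wild-type replicate 1 (median 0.24). The other libraries, left out in turn, gave 2 and 4 to 6, and the 6 libraries alone 0 and 3. HERPUD1, a stress-induced membrane protein of that compartment, fell from 45.3, 58.2 and 56.4 to 30.5, 31.6 and 31.4 CPM (log2 fold change -0.77, and -0.87 without replicate 1). Of cholesterol genes, 3 of 28 tested members rose and 13 fell (median log2 fold change -0.27). Leaving out wild-type replicate 1 gave 6 and 16 (median -0.31). For each other library left out they were 1 to 2 and 11, and in the fit of the 6 libraries 0 and 9. IDI1 and MVD are enzymes of the mevalonate pathway. IDI1 fell from 50.2, 54.7 and 55.3 to 30.1, 27.6 and 30 CPM (log2 fold change -0.87, and -0.91 without replicate 1). MVD fell from 28.5, 46.7 and 44.9 to 21.3, 20.1 and 23.2 CPM (log2 fold change -0.89, and -1.08 without replicate 1). Of lysosomal genes, 3 of 33 tested members rose and 9 fell (median log2 fold change -0.16). In the fit without wild-type replicate 1, 10 rose and 15 fell (median -0.04). Leaving out each other library in turn left 2 to 3 and 8 to 10, and the fit of the 6 libraries 0 and 6. LAMP1, a lysosomal membrane protein, fell from 347, 377 and 373 to 241, 230.5 and 235 CPM (log2 fold change -0.63, and -0.67 without replicate 1). The protease CTSD fell from 1405, 1313 and 1292 to 1013, 1056 and 1002 CPM (log2 fold change -0.39, and -0.34 without replicate 1).

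Of TGF-beta and BMP genes, 2 of 29 tested members rose and 12 fell (median log2 fold change -0.27). These became 11 and 16 when wild-type replicate 1 was left out (median -0.29). Any other library left out gave 1 to 2 and 11 to 13, and the 6 libraries alone 1 and 6. The ligand TGFB1 fell from 135, 129.8 and 123 to 69, 69.5 and 68 CPM (log2 fold change -0.91, SE 0.06, adjusted p = 3.85e-06, and -0.87 without replicate 1). ID3, a BMP-induced inhibitor of helix-loop-helix factors, fell from 74.9, 69.5 and 72.9 to 28.3, 27.9 and 27.2 CPM (log2 fold change -1.38, SE 0.07, adjusted p = 8.46e-07, and -1.35 without replicate 1). SMAD3, which carries the TGF-beta signal to the nucleus, rose from 306, 321 and 313 to 559, 565 and 561 CPM (log2 fold change 0.84, SE 0.05, adjusted p = 1.36e-06, and 0.83 without replicate 1). In all 3 genes the groups were tight and apart. Of MAPK feedback and AP-1 genes, 6 of 30 tested members rose and 11 fell (median log2 fold change -0.36). With wild-type replicate 1 left out, 8 rose and 21 fell (median -0.39). They were 5 to 6 and 9 with each other library left out, and 5 and 5 in the fit of the 6 libraries. EREG, a ligand of the EGF receptor, fell from 43.3, 46.4 and 44.1 to 19.6, 19.3 and 19 CPM (log2 fold change -1.21, SE 0.06, adjusted p = 8.46e-07, and -1.23 without replicate 1), whereas the ligands TGFA (144, 98.6 and 95.4 to 199, 191 and 196 CPM, log2 fold change 0.79, and 1.02 without replicate 1) and HBEGF (115, 117 and 113 to 139, 144 and 138 CPM, log2 fold change 0.29, and 0.30 without replicate 1) rose. FOSL2 rose (389.8, 313 and 307 to 584, 616 and 624 CPM, log2 fold change 0.85, and 0.98 without replicate 1) and JUND fell (175, 146 and 149 to 93.3, 102 and 99.4 CPM, log2 fold change -0.67, and -0.58 without replicate 1), both subunits of AP-1.

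Of YAP and TAZ targets, 7 of 27 tested members rose and 7 fell (median log2 fold change 0.08). When wild-type replicate 1 was left out there were 12 and 11 (median 0.05). With any other library left out, 6 to 7 rose and 4 fell, and with the 6 libraries alone 4 and 4. AMOTL1, an angiomotin that binds YAP, rose from 68.4, 67.6 and 66.6 to 133, 129.7 and 129 CPM (log2 fold change 0.95, SE 0.05, adjusted p = 1.3e-06, and 0.96 without replicate 1). ANKRD1, a widely used readout of YAP, fell from 291, 545 and 554 to 178, 167 and 164 CPM (log2 fold change -1.45, SE 0.19, adjusted p = 0.000255, and -1.69 without replicate 1). Of NRF2 target genes, 7 of 27 tested members rose and 4 fell (median log2 fold change 0.07). Once wild-type replicate 1 was left out, 15 rose and 6 fell (median 0.12). The other libraries, left out in turn, gave 6 to 7 and 4, and the 6 libraries alone 6 and 4. Beside the AKR1C genes, ME1, a source of NADPH, rose from 39.5, 27.1 and 27.9 to 61, 56.8 and 59.9 CPM (log2 fold change 0.91, and 1.11 without replicate 1). GCLM and GCLC, the 2 subunits of the enzyme that starts glutathione synthesis, went in opposite directions. GCLM went from 113, 78 and 76.7 to 147, 147 and 149 CPM (log2 fold change 0.73, and 0.94 without replicate 1). GCLC went from 33, 27.4 and 28.1 to 20.2, 18.9 and 19.3 CPM (log2 fold change -0.60, and -0.50 without replicate 1). NQO1, a quinone reductase, fell from 206, 358 and 364 to 167, 169.6 and 168 CPM (log2 fold change -0.88, and -1.10 without replicate 1). ALDH3A1, an aldehyde dehydrogenase, was at 0.722, 83.2 and 81.5 CPM in wild type and 0.0704, 0.195 and 0.0564 with mutation 2 (log2 fold change -8.92, SE 1.61, adjusted p = 0.00169, and -9.49 without replicate 1), and -9.60 without the second mutation 2 library, and wild-type replicate 1 was under 1 CPM as well. Members of this list were thus called in both directions.

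Splicing and RNA-binding genes and DNA and histone modifiers were called higher more often than lower, and histone genes lower. Of splicing and RNA-binding genes, 14 of 35 tested members rose and 2 fell (median log2 fold change 0.14). The counts were 21 and 8 without wild-type replicate 1 (median 0.17). For each other library left out they were 11 to 13 and 1 to 2, and in the fit of the 6 libraries 9 and 0. HNRNPH1, a splicing regulator, rose from 453, 428 and 429.8 to 728, 717 and 741 CPM (log2 fold change 0.74, SE 0.05, adjusted p = 4.09e-06, and 0.77 without replicate 1). SON, a protein of nuclear speckles, rose from 193, 244 and 239 to 342, 359.8 and 351 CPM (log2 fold change 0.64, and 0.54 without replicate 1). Of DNA and histone modifiers, 15 of 34 tested members rose and 3 fell (median log2 fold change 0.24). Leaving out wild-type replicate 1 gave 20 and 6 (median 0.18). Leaving out each other library in turn left 12 to 13 and 1 to 2, and the fit of the 6 libraries 10 and 1. TET3, which oxidises methylated cytosine, rose from 11.6, 13.1 and 12.7 to 26.7, 28.9 and 29.4 CPM (log2 fold change 1.18, SE 0.08, adjusted p = 3.58e-06, and 1.14 without replicate 1). The histone deacetylases HDAC4 (17.2, 18.9 and 17 to 29.3, 31.2 and 31.5 CPM, log2 fold change 0.79, and 0.78 without replicate 1) and HDAC9 (30.1, 17 and 15.2 to 64.3, 63.5 and 61.2 CPM, log2 fold change 1.60, and 1.97 without replicate 1) rose while HDAC5 fell (34.6, 36.1 and 31.2 to 20.3, 20.5 and 22.2 CPM, log2 fold change -0.69, and -0.68 without replicate 1). Of histone genes, 0 of 18 tested members rose and 10 fell (median log2 fold change -0.35). In the fit without wild-type replicate 1, 3 rose and 11 fell (median -0.28). Any other library left out gave 0 and 6 to 9, and the 6 libraries alone 0 and 5. With edgeR's test 0 rose, against 1 at an unadjusted p under 0.05 and 0 by DESeq2. H2BC5 went from 5.38, 6.7 and 7.18 to 2.32, 2.14 and 2.09 CPM (log2 fold change -1.56, and -1.66 without replicate 1). Most histone transcripts lack a poly(A) tail and have near-identical copies, so their counts are uncertain.

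Expression also differed by chromosome, a view added after the data were seen. Over 13475 genes at 1 CPM or more the median log2 fold change was -0.02, and 22.1% were called lower and 18.3% higher. On chromosome 14 it was -0.50, and 57% of 416 genes were called lower, on chromosome 13 it was -0.46 (47.4% of 232 lower), and on chromosome 12 -0.31 (39.6% of 717 lower). On chromosome 18 it was 0.39 (35.3% of 190 higher) and on chromosome 2 it was 0.26 (36.4% higher). Without wild-type replicate 1 the medians were -0.65, -0.64, -0.44, 0.63 and 0.40 in the same order. These differences lay between the mutation 2 libraries and wild-type replicates 2 and 3: on chromosome 14 the libraries' medians relative to both groups were -0.05, 0.34 and 0.36 in wild type and -0.22 in each mutation 2 library, and on chromosomes 13 and 18 wild-type replicate 1 lay with mutation 2 (-0.19 against -0.20 to -0.19, and 0.21 against 0.20 to 0.22).

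Medians were also taken over windows of 40 neighbouring genes. The counts called in a window are to be read against the 22.1% lower and 18.3% higher over all 13475 genes. Every window of chromosome 13 (-0.38 to -0.62 over 5 windows) and of chromosome 14 (-0.27 to -0.67 over 10) had a median below 0 (without replicate 1, -0.58 to -0.70 and -0.30 to -0.89). The lowest median of any window, -0.85, was on chromosome 8, where 24 of 40 genes were called lower (-0.94 without replicate 1). On chromosome 12 the window from 53180700 to 56103505 had a median of -0.77, and 31 of its 40 genes were called lower (-0.92 without replicate 1). The highest medians of any window were those of 3 windows at the start of chromosome X (276322 to 47248328), at 0.78, 0.81 and 0.74, and 1.40, 1.28 and 0.99 without wild-type replicate 1. On chromosome 6, windows from 80355424 to 96897881, 97142161 to 110895713 and 124962545 to 137883312 had medians of 0.52, 0.55 and 0.52 (0.45, 0.51 and 0.53 without replicate 1), and here wild-type replicate 1 lay with its group: in the second of them the library medians were -0.26, -0.26 and -0.24 in wild type and 0.29, 0.24 and 0.24 with mutation 2, and 30 of 40 genes were called higher. DNA copy number was not measured, and its part in these values was not tested.

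**Figure D5:**
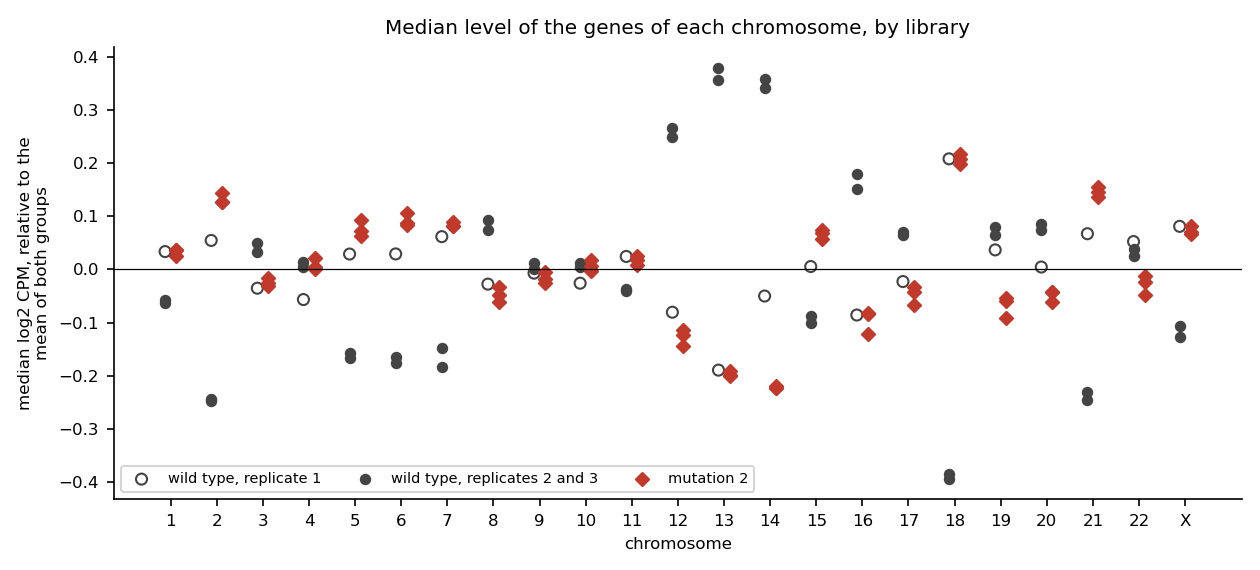
Median log2 CPM of the genes of each chromosome in each library, relative to the mean of both groups and to the median of all genes; open circles are wild-type replicate 1, filled circles wild-type replicates 2 and 3, red diamonds mutation 2. On chromosomes 13 and 18 the open circle lies with the diamonds, and on chromosomes 12, 13, 14 and 18 wild-type replicates 2 and 3 lie farthest from 0.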

How the data were processed

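Poly(A)-selected RNA from 12 samples of MDA-MB-231 cells, transfected with wild-type Dicer (3) or 1 of 3 Dicer mutants (3 each), was sequenced. Per the file headers, the files deposited by the authors hold untransformed counts, one per Ensembl gene and in read pairs, on hg38, made with featureCounts 2.0.6 over exons, without regard to strand and with a mapping quality of at least 10. The counts of overlapping or antisense genes, and of near-identical copies, are therefore uncertain. Tools named in the submitters' processing notes are cutadapt 1.9.1, FastQC 0.11.8, SAMtools, STAR and DESeq2, and the remaining versions are not given in the sources used here.

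Each file holds 64252 genes, of which 15094 were tested after edgeR's filter (minimum count 10, minimum total 15). All 12 libraries entered 1 fit of edgeR 4.0.16 (R 4.3.3) with TMM scaling and the robust quasi-likelihood test, with 8 residual degrees of freedom, and the contrast of mutation 2 minus wild type was adjusted by Benjamini-Hochberg over all genes tested, with a threshold of 0.05. The standard error was taken from the log2 fold change and its F statistic. CPM and log2 values were computed from the deposited counts. The procedure was tested on simulated data with the same spread in every library and none standing apart. That test therefore does not cover a library like wild-type replicate 1.

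The comparison, the gene lists and the rules were chosen with earlier results of these data known. Genes were named by rule: DICER1, the 15 widest gaps each way (at 5 CPM or more), the 8 largest rises and falls in mean CPM, and from the called members with the lowest adjusted p of each list, up to 4 each way. Members of the machinery, transition and marker lists were named whether called or not. Symbols and sequences came from GENCODE 29 and RefSeq tables. Alternatives were DESeq2 1.42.0, RLE scaling, no filter and a stricter one, a fit of the 6 libraries, and leaving out each library. Chromosome and window medians were added after the data were seen. A few genes that these rules name are not reported here.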

Additional observations from a re-analysis of the deposited data

How the results depend on the processing

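The number of genes called (5588) and its division by direction stayed within 1.5 times under DESeq2 (5703), RLE scaling (5582), no filter (4577) and a stricter filter (5521). With the spread estimated from the 6 libraries alone, 2589 were called, 1223 higher and 1366 lower, with 745 at least 2-fold apart. Leaving out 1 library at a time gave 4208 to 10726 called, 1887 to 5213 higher, 2304 to 5513 lower and 1092 to 3140 at least 2-fold apart, and the upper end of each range is the fit without wild-type replicate 1. Genes whose libraries do not overlap numbered 6427, 11663 without that library (a count that rises in part because fewer libraries are compared) and 6428 without TMM scaling. DGCR8 changed sign without it, to -0.14, and over the libraries left out ran from there to 0.19. Among the genes named, the fit of the 6 libraries lost the calls of ACTG1, CANX, CCNJ, CDH1, COBL, DUSP4, FLNA, IFIH1, MIR222HG, NLRC5, PLCB4, PTPRF, RAN, RPS12, TGM2, TNS3 and TXNRD1. The fit with no filter lost those of CANX, CDH1, COBL, PTPRF and TXNRD1. Of 38 list medians, 13 moved by more than the spread between libraries without wild-type replicate 1, and 0 under DESeq2. Of 13 seed differences in the longest 3′ UTRs, 1 moved by over 0.05, that of miR-100-5p, from 0.0506 to 0. No paired analysis was possible because the labels of the mutant libraries carry no replicate numbers that match those of wild type. With 3 libraries a group, of which 1 in wild type stands apart, the number of libraries limits the precision, and genes below the filter were too low to test at 13507341 to 17078273 counts a library.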

Other observations

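Some gene groups belong to none of the sets above. Of neuronal and secretory granule genes, 4 of 16 tested members rose and 4 fell (median log2 fold change -0.06). These became 7 and 5 when wild-type replicate 1 was left out (median 0.01). They were 2 to 4 and 1 to 2 with each other library left out, and 2 and 1 in the fit of the 6 libraries. SYT7, a calcium sensor for exocytosis, was at 0.197, 0.112 and 0.0647 CPM in wild type and 0.915, 1.43 and 1.24 with mutation 2 (log2 fold change 3.19), and without replicate 1, where wild type had 3 counts, the count ratio was 13.4 with an exact 95% interval of 4.35 to 66.8. Of nuclear-retained long RNAs, 1 of 14 tested members rose and 4 fell (median log2 fold change 0.11). With wild-type replicate 1 left out, 4 rose and 5 fell (median -0.06). With any other library left out, 0 to 2 rose and 0 fell, and with the 6 libraries alone 0 and 0. Of cancer-testis antigens, 0 of 6 tested members rose and 2 fell (median log2 fold change -0.45). When wild-type replicate 1 was left out there were 1 and 2 (median -0.29). The other libraries, left out in turn, gave 0 and 1, and the 6 libraries alone 0 and 1. By edgeR's test 0 rose, with 0 at an unadjusted p under 0.05 and 0 by DESeq2. MAGED2, of the MAGE family, was at 253, 339.5 and 331 CPM in wild type and 143, 145 and 145 with mutation 2 (log2 fold change -1.09, and -1.21 without replicate 1). Of MDA-MB-231 and basal breast markers, 2 of 21 tested members rose and 6 fell (median log2 fold change -0.10). Once wild-type replicate 1 was left out, 10 rose and 8 fell (median 0.11). For each other library left out they were 2 to 3 and 5 to 7, and in the fit of the 6 libraries 1 and 3. LGALS1, the lectin galectin-1, was at 747, 638 and 630.3 against 427, 441 and 441 CPM (log2 fold change -0.62, and -0.53 without replicate 1).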
